A study of Bos taurus with 24 samples.

Results

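The transcripts described here belong to the fibroblast growth factor (FGF) pathway and to the negative feedback on its kinase ERK. They are 10 of the 24621 genes listed in the count table: the ligand FGF4, the receptors FGFR1, FGFR2 and FGFR4, the feedback inhibitors DUSP6, SPRY2, SPRY4 and SPRED1, and the ERK-responsive transcription factors ETV4 and ETV5. They were chosen by their role in the pathway and matched by symbol, and all 10 were found. The table gives neither coordinates nor gene lengths, so each gene was compared between embryos and never with another gene.

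FGF ligands bind receptor tyrosine kinases at the cell surface together with heparan sulphate, and the activated receptors signal through RAS, RAF and MEK to the kinase ERK. ERK output induces its own inhibitors, among them Sprouty and Spred proteins, which restrain the cascade around RAS and RAF, and DUSP6, a phosphatase that removes the activating phosphates from ERK. In the mammalian blastocyst, ERK activity favours the hypoblast over the pluripotent epiblast inside the inner cell mass, and FGF4 made by epiblast precursors is the best known ligand. The transcription factors ETV4 and ETV5 and the feedback inhibitors are widely used as transcript readouts of the pathway, while ERK phosphorylation itself was not analysed here.

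RNA of 24 single Holstein early blastocysts of the best morphological grade was sequenced, and each embryo was 1 replicate. The groups were 8 in vivo derived embryos (5 male, 3 female), flushed from superovulated cows, 8 embryos produced in vitro with serum (serum embryos; 3 male, 5 female) and 8 produced in vitro without it (serum-free embryos; 5 male, 3 female). All had the same sire, and the in vitro embryos came from 3 experiments. Serum production used 20% fetal bovine serum during oocyte maturation and 5% in embryo culture. Serum-free production used 20 ng/mL epidermal growth factor during maturation, and 0.4% bovine serum albumin with insulin (5 µg/mL), transferrin and selenium in culture. Both in vitro cultures shared the SOF base medium and reduced oxygen. Maturation and culture medium changed together, so their parts cannot be told apart. The labels do not tie an embryo to its donor cow, in vitro experiment or sequencing lane, and p-values therefore measure the spread between these single embryos.

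Exon counts per embryo lay between 3253051 and 9000447, with a median of 4454031. At these depths 3 counts, taken here as the floor of detection, equal 0.333 to 0.922 CPM (counts scaled to a common library size), with counting error alone considered. Among the serum embryos, the 4 with the fewest genes detected were B1, B2, B5 and B7, which include all 3 males. Genes detected numbered 11735 to 12390 in the male serum embryos and 13587 to 14381 in the male in vivo derived embryos. The blastocyst label was checked against lineage markers. Trophectoderm markers summed to between 8012 and 15576 CPM in vivo, 5892 and 29642 CPM in serum-free medium and 700 and 5856 CPM in serum-containing medium, so the serum embryos lay below all others in this sum. Pluripotency markers summed to between 922 and 1162 CPM in vivo (median 1079), 698 and 1078 serum-free (median 975) and 834 and 1512 with serum (median 1216). Markers of cumulus cells, oocyte, blood and uterus each summed to at most 187 CPM. The highest oocyte sums were 15.8 CPM in vivo, 104 serum-free and 187 with serum (medians 6.30, 15.4 and 10.4). The highest uterine sums were 41.7, 82.3 and 117 CPM in the same order (medians 28.7, 37.2 and 38.0). The sums of the blood markers were 11.6 to 38.1 CPM in vivo (median 18.2), 3.27 to 43.4 serum-free (median 25.4) and 28.0 to 118 with serum (median 74.0). Among them CSF1R, the macrophage colony stimulating factor receptor, was called in vivo over serum (log2 fold change -2.08 ± 0.47, adjusted p = 0.00346), while the pan-leukocyte marker PTPRC had at most 16 counts in any embryo. Under the count limit described below, CSF1R entered that test only through the serum embryos, where it was high, so its value is a description. The part of these markers in the differences between cultures was not tested. In whole embryos, fewer cells of a type and less RNA per cell cannot be told apart.

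A gene was tested with the quasi-likelihood test of edgeR when every embryo of at least 1 group had 15 counts or more. The call of differential expression required an adjusted p under 0.05 together with a change of 2-fold or more. A gene that passes this limit only through the group where it is high is in part selected for a difference. Such members and called pathway genes are named, and their values are also given without the limit (at least 1 count in any embryo). Values per embryo are counts or CPM after TMM scaling, which corrects for library size and composition.

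Between culture conditions with the sexes pooled, none of the members was differentially expressed. The lowest adjusted p was that of DUSP6 in vivo over serum (0.0685, quasi-likelihood test of edgeR). DUSP6 entered that test only through the in vivo derived embryos, where it was high. The lowest unadjusted p was that of SPRY2 in vivo over serum-free (0.00760, same test), where both groups passed the count limit. Of the 10 members, 5 could be tested between in vivo derived and serum embryos, 5 between in vivo derived and serum-free embryos, and 4 between serum-free and serum embryos. Among all genes tested, 13.8%, 2.2% and 8.91% were called in the same comparisons. At an unadjusted p under 0.05 there were 2, 2 and 0 members. The exact test of edgeR and DESeq2, under the same count limit, each called 1, 0 and 0 members, and the 1 was DUSP6. No member had groups without overlap in any of these comparisons, which 7.13%, 0.971% and 2.37% of all genes tested had. Without the count limit all 10 members could be tested and none was called. The comparison of serum-free with serum embryos is not among those of the study. All 3 share embryos with one another and are not independent.

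**Figure D1:**
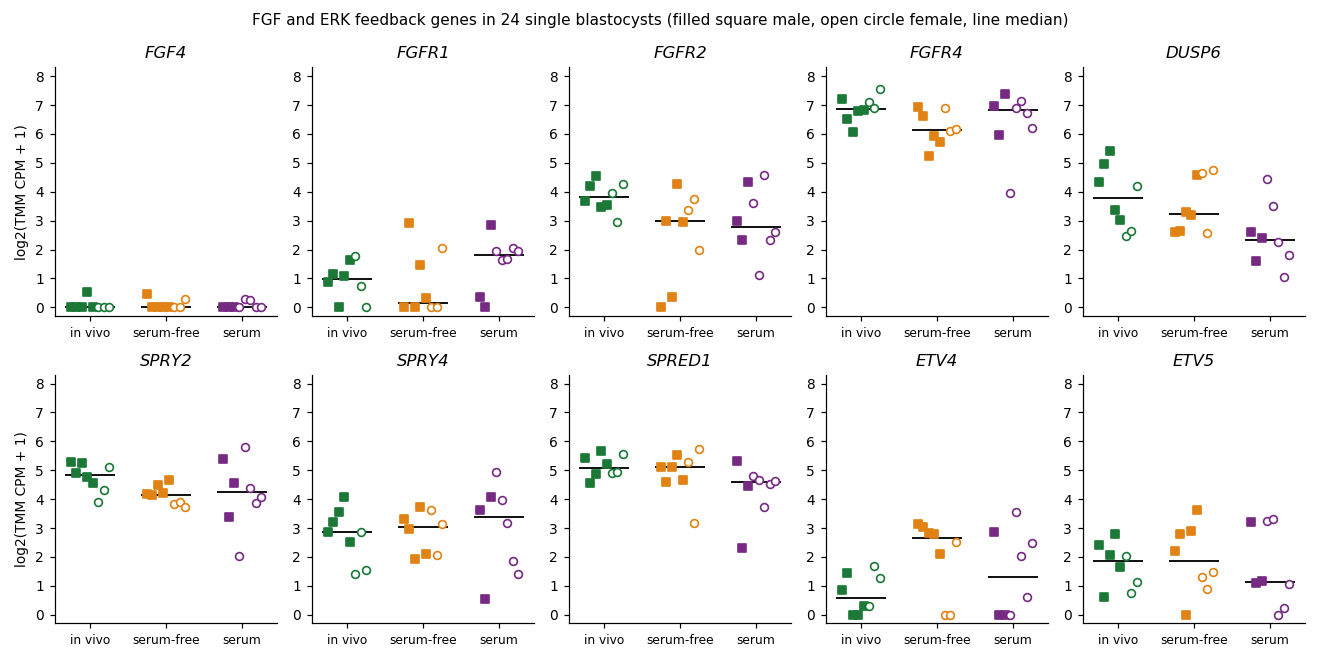
Level of each of the 10 genes in each of the 24 embryos, as log2(TMM CPM + 1), by culture condition; filled squares are male embryos, open circles female embryos and the line is the median of 8. FGF4 lay at or next to 0 everywhere, the culture conditions overlapped in every panel, and serum embryo B2 was the lowest of its group for FGFR4 and SPRY2 and the highest for DUSP6 and SPRY4.

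FGF4, the ligand, was practically undetected. It had 7 counts in all 24 embryos together, and 19 embryos had none. The counts were 2 in in vivo derived embryo A4, 2 and 1 in serum-free embryos C1 and C8, and 1 each in serum embryos B3 and B4. No embryo exceeded the floor of 3 counts, so no fold change is given, and a difference between cultures was not detectable at this depth.

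The other listed FGF ligands were scarce as well. Of 18 listed, FGF4 included, 17 were in the table. Of these, 5 (FGF3, FGF6, FGF8, FGF20 and FGF23) had no count in any embryo and none reached the count limit for a test. Their counts summed over all 17 came to between 0 and 34 per embryo, with a median of 13. FGF2, a widely expressed ligand, was present in 22 of 24 embryos with at most 12 counts, and FGF9 in 16 embryos with at most 9. FGF18 had 27 counts in 1 serum embryo, the only value of these 17 genes above the limit.

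FGFR4, the receptor in the set with counts well above the limit in every embryo, passed no test between cultures. Its lowest, median and highest CPM were 66.3, 116 and 187 in vivo, 36.3, 70.1 and 121 in serum-free medium, and 14.7, 111 and 164 in serum-containing medium. The lowest value belonged to serum embryo B2, which had 62 counts, whereas the other 7 serum embryos had 61.5 CPM or more. Means were 121 ± 36.5 CPM in vivo, 100 ± 48.3 with serum and 78.3 ± 31.1 serum-free (SD, n = 8 each). Relative to serum-free embryos, in vivo derived embryos had a log2 fold change of 0.63 ± 0.23 (SE; adjusted p = 0.112, edgeR), with a 95% interval of 0.15 to 1.11. In vivo over serum it was 0.29 ± 0.32 (adjusted p = 0.518), with an interval of -0.38 to 0.96. The order of the means was thus in vivo, serum, serum-free, and neither neighbouring pair in it differed beyond the spread between embryos, serum-free over serum being -0.34 ± 0.35 (adjusted p = 0.519).

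FGFR2 was present in every in vivo derived embryo and was uneven among embryos produced in vitro. In vivo derived embryos held 6.76 to 22.4 CPM, with a median of 13.2 and no embryo under 30 counts. Serum-free embryos ran from 0 to 18.3 CPM with a median of 6.90, and C1 had no count and C4 a single count. Serum embryos ran from 1.16 CPM in B3 to 22.8 CPM in B4, with a median of 5.97. The groups overlapped throughout. The log2 fold change in vivo over serum-free was 0.97 ± 0.56 (adjusted p = 0.331), with a 95% interval of -0.19 to 2.13, and in vivo over serum it was 0.62 ± 0.46 (adjusted p = 0.322). FGFR2 passed the count limit in both only through the in vivo derived embryos, where it was high. Without the limit the values were 0.99 ± 0.56 (adjusted p = 0.407) and 0.62 ± 0.46 (adjusted p = 0.418). The biological coefficient of variation, the spread between embryos that edgeR fits beyond counting error, was 0.616 and 0.751 for FGFR2 in the fits with serum and serum-free embryos, against medians of 0.376 and 0.311 over all genes. Between serum-free and serum embryos FGFR2 fell under the count limit, and its mean log2(CPM + 1) was 2.46 and 2.98 (exact permutation test, two-sided, p = 0.458, adjusted p = 1).

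FGFR1 stayed at the edge of detection. In vivo derived embryos had 0 to 10 counts, serum-free embryos 0 to 26 and serum embryos 0 to 20, and 7 of the 24 embryos had none. The embryos without FGFR1 counts were 2 in vivo derived, 4 serum-free and 1 serum embryo. All 5 female serum embryos had 9 to 18 counts, whereas the 3 males had 1, 0 and 20. Mean log2(CPM + 1) was 0.91 in vivo, 0.84 serum-free and 1.56 with serum, and the in vivo minus serum difference of -0.65 did not exceed the variation among embryos (exact permutation test, two-sided, p = 0.129, adjusted p = 0.940 over 16 such tests). The smallest p this test can give with 8 against 8 embryos is 0.000155.

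Among the wider receptor list of 15 receptors and co-receptors, 14 were in the table and 5, 5 and 4 were tested in the order of comparisons above. None was differentially expressed. Their median log2 fold changes were 0.29, 0.09 and -0.13, against -0.01, -0.00 and -0.02 over all genes tested. SDC4, a heparan sulphate proteoglycan, had a log2 fold change of 0.86 ± 0.26 in vivo over serum (adjusted p = 0.0194), short of a 2-fold change. FGFR3 was under the count limit, with 4 to 28 counts in vivo, 4 to 17 serum-free and 0 to 11 with serum.

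DUSP6, the ERK phosphatase, had its lowest mean in serum embryos and varied widely in every culture. The lowest, median and highest CPM were 4.56, 13.4 and 41.5 in vivo, 4.91, 8.44 and 26.3 in serum-free medium, and 1.05, 4.05 and 20.8 in serum-containing medium. Of the 8 serum embryos 6 had 5.14 CPM or less, and the highest, B2, lay above 6 of the in vivo derived embryos. Means were 16.8 ± 13.3, 13.1 ± 9.37 and 6.26 ± 6.54 CPM in the same order (SD, n = 8 each). In vivo over serum, the log2 fold change was 1.45 ± 0.58 with a 95% interval of 0.23 to 2.66, and the adjusted p of 0.0685 missed the threshold. Serum-free over serum gave 1.09 ± 0.56 (adjusted p = 0.183), with an interval of -0.09 to 2.26. In vivo over serum-free gave 0.36 ± 0.48 (adjusted p = 0.720), with an interval of -0.64 to 1.36. In both comparisons with serum DUSP6 passed the count limit only through the group where it was high, since serum embryos B6, B7 and B8 had 6, 14 and 14 counts. Without the limit it was at 1.51 ± 0.56 in vivo over serum (adjusted p = 0.0819) and at 1.13 ± 0.56 serum-free over serum (adjusted p = 0.249).

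The pooled DUSP6 calls depended on serum embryo B2 and, in vivo over serum, also on the test used. With B2 kept, the exact test of edgeR and DESeq2 called DUSP6 in vivo over serum (adjusted p = 0.0446 and 0.0378). Without B2 the log2 fold change in vivo over serum was 2.02 ± 0.54 (adjusted p = 0.00867), and serum-free over serum it was 1.67 ± 0.52 (adjusted p = 0.0367). All of these values carry the same limit, DUSP6 having entered these tests through the group where it was high, and they are given as descriptions. B2 was 1 of the serum embryos with few genes detected, and it had 1157 CPM of trophectoderm markers and 885 CPM of hypoblast markers, the latter the lowest of all embryos. Without all 4 serum embryos with few genes detected, a setting chosen after seeing the data, DUSP6 was at 1.97 ± 0.69 in vivo over serum (adjusted p = 0.0522). Most trophectoderm markers moved with culture in the same direction, since 8 of the 11 tested were called higher in vivo than with serum. The opposite direction was seen for ID2 (log2 fold change -3.07), which was called, and for TEAD4 (-0.71) and TFAP2C (-0.32), which were not. The part of these markers in the DUSP6 difference was not tested.

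**Figure D2:**
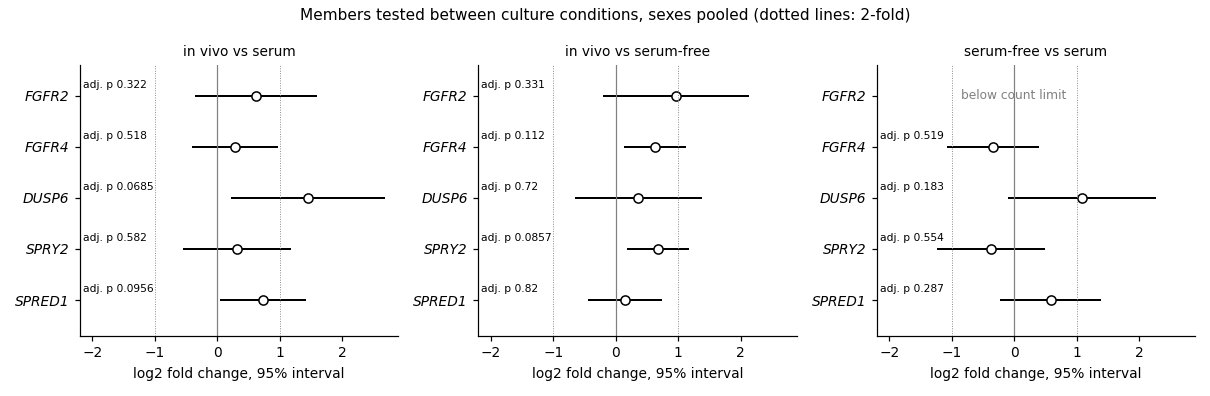
Log2 fold change (circle) with its 95% interval (line) and adjusted p for the 5 members above the count limit, in 3 comparisons of culture conditions with the sexes pooled. All adjusted p-values lay above 0.05; the intervals of DUSP6 and SPRED1 in vivo over serum, and of FGFR4 and SPRY2 in vivo over serum-free, did not reach 0.

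Separated by sex, DUSP6 was the single member with a differential expression call in any comparison, in male embryos between in vivo and serum. The 5 male in vivo derived embryos held 19.2, 30.3, 41.5, 9.28 and 7.12 CPM. The 3 male serum embryos held 5.14, 2.02 and 4.30 CPM, from 18, 18 and 14 counts. The male groups therefore did not overlap, as was also so for 26.2% of the genes tested in this comparison. The log2 fold change was 2.54 ± 0.68 (adjusted p = 0.0236), with a 95% interval of 1.06 to 4.01. With 14 counts in B7, DUSP6 entered this test only through the in vivo derived males, the group where it was high, so this value is a description. Without the limit, with 18061 genes tested, the log2 fold change was 2.52 ± 0.65 (adjusted p = 0.0136), and with 15 counts required in every embryo DUSP6 could not be tested. The exact test of edgeR and DESeq2, run under the same count limit, also called it (adjusted p = 0.00399 and 0.000987). These values are descriptions too. Of 7762 genes tested in male embryos, 13.3% were called. All 3 male serum embryos were among those with few genes detected, whose part in the DUSP6 difference was not tested.

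The male call depended on single embryos. With each of the 8 embryos left out in turn the log2 fold change stayed between 2.14 and 2.87, and the adjusted p ran from 0.0185 to 0.0676. The call was lost without A2, A3, B5 or B7 (log2 fold changes 2.37, 2.14, 2.18 and 2.66). It was also lost in 1 fit over all 24 embryos, where the adjusted p was 0.0536.

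In female embryos DUSP6 was not differentially expressed. The 3 in vivo derived females held 4.56, 5.18 and 17.5 CPM and the 5 serum females 20.8, 10.4, 3.80, 1.05 and 2.54 CPM. The log2 fold change was 0.22 ± 0.90 (adjusted p = 0.901), and its 95% interval of -1.78 to 2.22 left room for a change of either sign. Its direction turned without A9 (-0.69) and without B6 (-0.05). DUSP6 entered this test only through the in vivo derived females, the group with the higher level. Without the limit it was at 0.33 ± 0.85 (adjusted p = 0.872). The difference between the sexes was tested as an interaction of sex and culture. The male minus female change was 2.25 ± 1.21 on the log2 scale (adjusted p = 0.989), so a different response of the sexes was not shown.

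In serum-free medium the females had the higher DUSP6 mean, at 18.3 ± 11.7 CPM (SD, n = 3) against 9.98 ± 7.26 in males (SD, n = 5). Serum-free males held 5.15, 5.25, 8.73, 8.16 and 22.6 CPM and serum-free females 23.8, 4.91 and 26.3 CPM. The log2 fold changes in vivo over serum-free were 1.09 ± 0.53 in males (adjusted p = 0.296) and -1.01 ± 0.71 in females (adjusted p = 0.579). The interaction was 2.10 ± 0.96, with an adjusted p of 0.743 over all genes. Within the in vivo derived embryos, male over female DUSP6 was 1.25 ± 0.62 (adjusted p = 0.404).

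**Figure D3:**
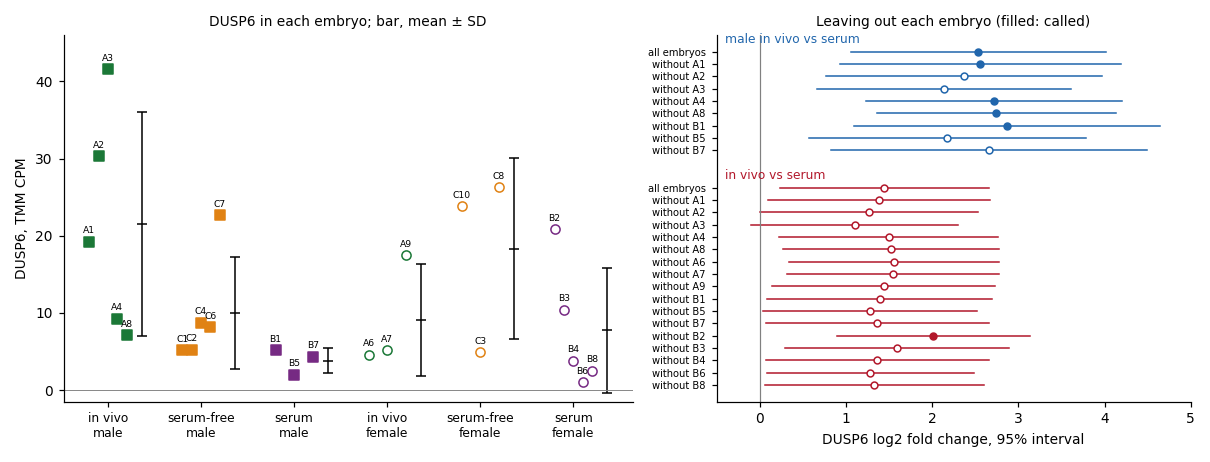
Left, DUSP6 in TMM CPM in every embryo of the 6 groups, with the embryo's name and the mean ± SD beside the points. Right, its log2 fold change in vivo over serum with the 95% interval, for male embryos and for both sexes, with all embryos and without each in turn; filled circles were called. The male in vivo and male serum embryos do not overlap, and with both sexes pooled, the call appears among these fits only without B2.

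SPRY2, a Sprouty inhibitor of RAS to ERK signalling, had its highest mean in vivo and its smallest spread in serum-free embryos. The lowest, median and highest CPM were 13.9, 27.7 and 37.8 in vivo, 12.3, 16.8 and 24.4 serum-free, and 3.08, 18.0 and 54.7 with serum. Its extremes were both serum embryos, B2 with 13 counts and B3 with 236. In vivo over serum-free the log2 fold change was 0.68 ± 0.23 (adjusted p = 0.0857), with a 95% interval of 0.20 to 1.16. In vivo over serum it was 0.32 ± 0.41 (adjusted p = 0.582) and serum-free over serum -0.37 ± 0.41 (adjusted p = 0.554). The in vivo over serum test was entered only through the in vivo derived embryos, where SPRY2 was high. Without the limit that value was 0.32 ± 0.39 (adjusted p = 0.625).

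Within the sexes SPRY2 gave 2 separations without overlap. Serum-free males held 16.5 to 24.4 CPM and serum-free females 12.3 to 13.9 CPM, at a log2 fold change of 0.56 ± 0.35 (adjusted p = 0.753). The in vivo derived females, at 13.9, 18.9 and 33.6 CPM, also lay above the serum-free females, though the nearest values round to the same number, and the log2 fold change was 0.74 ± 0.44 (adjusted p = 0.498). Groups without overlap occurred in 6.85% and 21.1% of the genes tested in these comparisons.

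SPRED1, a Spred inhibitor that acts with neurofibromin on RAS, had its lowest mean in serum embryos, and no comparison passed the test. CPM ran from 22.6 to 49.7 in vivo with a median of 33.0, from 7.96 to 51.8 serum-free with a median of 33.5, and from 3.94 to 39.1 with serum with a median of 22.9. Means were 35.5 ± 9.71, 32.2 ± 13.7 and 21.7 ± 10.4 CPM (SD, n = 8 each). In vivo over serum, the log2 fold change was 0.73 ± 0.32 (adjusted p = 0.0956), with a 95% interval of 0.06 to 1.41. Without the 4 serum embryos with few genes detected it was 0.81 ± 0.27 (adjusted p = 0.0414), below a 2-fold change. Between in vivo and serum-free embryos the log2 fold change was 0.14 ± 0.28 (adjusted p = 0.820), with an interval of -0.43 to 0.72, and its sign turned without C3 (-0.02).

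In female embryos SPRED1 held 29.0, 29.5 and 46.3 CPM in vivo and 12.3 to 27.2 CPM with serum, without overlap. Such a separation was found in 22.7% of the genes tested in that comparison. The log2 fold change was 0.66 ± 0.35 (adjusted p = 0.304).

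SPRY4, the other Sprouty gene of the set, spread over a wide range in every culture. Counts were 7 to 71 in vivo, 10 to 50 serum-free and 4 to 126 with serum, where B5 was the lowest and B2 the highest. It was under the count limit with the sexes pooled, and mean log2(CPM + 1) was 2.76, 2.86 and 2.95 (exact permutation test, two-sided, p = 0.801 for in vivo against serum-free and p = 0.760 against serum, both adjusted p = 1). In vivo derived males held 4.75 to 15.7 CPM and females 1.68, 6.31 and 1.92 CPM. Male over female it was 1.47 ± 0.57 on the log2 scale, with an adjusted p of 0.277. SPRY4 entered this test only through the males, where it was high. Without the limit it was at 1.48 ± 0.64 (adjusted p = 0.435).

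ETV4, a PEA3 family transcription factor induced by ERK, had its lowest mean in vivo and its highest in serum-free embryos. No in vivo derived embryo had more than 10 counts and 2 had none. The serum-free males had 41, 29, 22, 24 and 13 counts, and the serum-free females 0, 0 and 21. Serum embryos were split, with 3 at 0 and the others between 3 and 47 counts. Mean log2(CPM + 1) was 0.74 in vivo, 2.05 serum-free and 1.44 with serum. The difference in vivo minus serum-free was -1.31 (exact permutation test, two-sided, p = 0.0295), with an adjusted p of 0.472 over the 16 tests of members below the count limit.

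In male embryos ETV4 fell under the count limit through a single embryo, C7, with 13 counts. Without C7 it entered the test, since the other serum-free males all exceeded the limit, and its log2 fold change in vivo over serum-free was -3.48 ± 0.70 (adjusted p = 0.0199). ETV4 then entered only through the group where it was high, so this value is a description. With all embryos and without the count limit it was -3.31 ± 0.91 (adjusted p = 0.0964).

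ETV5, the related factor, was detected in 22 of the 24 embryos at low counts. These were 3 to 27 in vivo, 0 to 45 serum-free and 0 to 39 with serum, with mean log2(CPM + 1) of 1.68, 1.90 and 1.67. The difference was -0.22 against serum-free (exact permutation test, two-sided, p = 0.672) and 0.02 against serum (exact permutation test, p = 0.973), both with an adjusted p of 1. Of the 16 tests of members below the limit, ETV4 between in vivo derived and serum-free embryos was the only one under an unadjusted p of 0.05.

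In the comparisons within sex and between the sexes, 4 to 6 members could be tested, and none besides DUSP6 in males was called. The share of all genes called was 0.966% in males and 0.304% in females between in vivo and serum-free, and 0.418% in females between in vivo and serum. Between males and females it was 0.653% in vivo, 0.173% with serum and 0.139% serum-free. Unadjusted p-values under 0.05 were found for 1 member each in males and females between in vivo and serum-free, and for 1 between in vivo derived males and females. Apart from DUSP6 in males between in vivo and serum, DESeq2 and the exact test of edgeR called no member in the comparisons within sex and between the sexes. In males between in vivo and serum-free, and between the sexes in vivo and with serum, no member had groups without overlap, as 5.52%, 9.95% and 5.95% of all genes did.

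How the members varied together among embryos of the same culture was examined next. For the 5 members that passed the count limit in a pooled comparison, deviations from the culture means were correlated over the 24 embryos in 10 pairs, and none had an adjusted p under 0.05 by Pearson or Spearman (permutation test within cultures). Pearson's r was 0.54 for FGFR4 with SPRY2 (p = 0.0629, adjusted p = 0.466), with Spearman's rho at 0.20 (p = 0.384, adjusted p = 0.736). Without the 2 embryos farthest from the median of FGFR4 that r was 0.16, so it rested on them. For DUSP6 with SPRED1, both feedback inhibitors, r was 0.31 (p = 0.157, adjusted p = 0.523) and rho 0.31 (p = 0.145, adjusted p = 0.60), and without the 2 embryos farthest from the median of DUSP6 r was 0.41 (permutation p = 0.0714) and rho 0.55 (permutation p = 0.0120, unadjusted). DUSP6 was the member with the highest coefficient of variation in the fits with serum, at 0.763 and 0.742, against medians of 0.376 and 0.400 over all genes.

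Around the members, the RAS to ERK cascade was described by 23 listed transducers. Between in vivo and serum 15 were tested, of which 2 were higher and 1 lower in vivo, beside 13.8% called among all genes, at a median log2 fold change of 0.32. GAB1, a docking protein downstream of receptor kinases, was at 30.7 ± 15.6 CPM in vivo and 12.6 ± 8.16 with serum (log2 fold change 1.29 ± 0.46, adjusted p = 0.0440). KSR1, a scaffold that holds RAF, MEK and ERK together, was at 7.36 ± 2.69 and 3.1 ± 1.26 CPM (1.26 ± 0.32, adjusted p = 0.00790). RPS6KA3, a kinase activated by ERK, was lower in vivo, at 4.29 ± 3.09 and 17.5 ± 14.7 CPM (-2.02 ± 0.48, adjusted p = 0.00520). All 3 passed the count limit only through the group where they were high, with down to 10, 8 and 7 counts in the other. Without the limit RPS6KA3 was still called (-1.97 ± 0.48, adjusted p = 0.0103), and GAB1 and KSR1 were not (adjusted p = 0.0623 and 0.0694). NRAS, a RAS protein, and PTPN11, a phosphatase that promotes RAS activation, had adjusted p-values of 0.00148 and 0.0339 in vivo over serum, with log2 fold changes of 0.87 ± 0.17 and 0.67 ± 0.23, short of a 2-fold change. None of the 14 transducers tested in each of the other pooled comparisons was called, beside 2.2% and 8.91% of all genes, at medians of 0.07 and 0.29. Serum-free over serum, NRAS (0.69 ± 0.19, adjusted p = 0.0244), PTPN11 (0.79 ± 0.23, adjusted p = 0.0255) and the RAF kinase ARAF (0.92 ± 0.30, adjusted p = 0.0396) missed the 2-fold limit alone.

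Of the 26 listed inhibitors of the ERK pathway, which include DUSP6, SPRY2, SPRY4 and SPRED1, 9 were tested against each culture in vivo and 8 between the cultures. DUSP1, a nuclear phosphatase of several MAP kinases and an immediate early gene, was the inhibitor called. It held 35.2 ± 4.31 CPM in vivo, 29.1 ± 13.6 serum-free and 75.3 ± 48.8 with serum. In vivo over serum its log2 fold change was -1.08 ± 0.32 (adjusted p = 0.0170), and serum-free over serum it was -1.36 ± 0.42 (adjusted p = 0.0349), the opposite direction to the DUSP6 estimates. All embryos had at least 15 counts of it. Without the count limit the adjusted p-values were 0.0235 and 0.0502, so the second call was lost. The called shares were 1 of 9, 0 of 9 and 1 of 8 inhibitors, beside 13.8%, 2.2% and 8.91% of all genes. The medians of the list were 0.32 and 0.25 in vivo over serum and over serum-free, and -0.19 serum-free over serum. RASA1, a GTPase activating protein of RAS, was at 0.94 ± 0.27 in vivo over serum (adjusted p = 0.0153) and at 0.95 ± 0.29 serum-free over serum (adjusted p = 0.0324), both under a 2-fold change.

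Of 20 listed ERK target genes 4 were tested, and EGR1, an immediate early transcription factor, was called between serum-free and serum embryos. EGR1 held 33.0 ± 16.0 CPM in vivo, 14.9 ± 7.22 serum-free and 40.8 ± 29.1 with serum, and serum-free over serum its log2 fold change was -1.44 ± 0.44 (adjusted p = 0.0343), 1 of 4 beside 8.91% of all genes. A serum-free embryo had 4 counts, so EGR1 passed the limit only through the serum group, and without the limit its call was lost (adjusted p = 0.0555). In vivo over serum-free it was 1.15 (adjusted p = 0.0918). EGR1 entered that test only through the in vivo derived embryos, where it was high, and without the limit it was at 1.17 (adjusted p = 0.119). The medians of the 4 genes were -0.07, 0.68 and -0.88 in the order of comparisons above.

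Other receptor tyrosine kinases feed the same cascade. Of 16 listed, 9 were tested, of which 3 were higher and 1 lower in vivo, beside 13.8% called among all genes, at a median of 0.64. KIT, the stem cell factor receptor, held 627 ± 173 CPM in vivo, 342 ± 189 serum-free and 64.7 ± 55.9 with serum (in vivo over serum 3.29 ± 0.55, adjusted p = 0.000491). PDGFRA, a hypoblast marker, held 435 ± 93.3, 216 ± 91.4 and 107 ± 77.1 CPM, and it was the receptor called in both in vivo comparisons (2.04 ± 0.38 over serum, adjusted p = 0.00101, and 1.01 ± 0.22 over serum-free, adjusted p = 0.00952). ERBB3 was higher in vivo than with serum (2.19 ± 0.59, adjusted p = 0.00981). FLT1, a receptor of vascular endothelial growth factor, was lower, at 0.606 ± 0.518 and 6.87 ± 5.06 CPM (-3.45 ± 0.54, adjusted p = 0.000303). KIT and ERBB3 passed the count limit only through in vivo derived embryos and FLT1, at 0 to 7 counts in vivo, only through serum embryos. Without the limit all 3 were still called in vivo over serum (adjusted p = 0.000304, 0.0138 and 0.00204). Serum-free over serum, KIT was at 2.42 ± 0.58 (adjusted p = 0.0119) and ERBB3 at 1.98 ± 0.65 (adjusted p = 0.0434), 2 of 8 tested beside 8.91% of all genes, at a median of 0.96. Both had entered through the serum-free group, where they were high, and without the limit KIT was called (adjusted p = 0.0140) and ERBB3 was not (adjusted p = 0.0730). In vivo over serum-free 1 of 7 was called, beside 2.2% of all genes, at a median of -0.06. KIT (0.87 ± 0.26, adjusted p = 0.0479) in that comparison, and MET serum-free over serum (0.91 ± 0.31, adjusted p = 0.0484), were short of a 2-fold change.

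**Figure D4:**
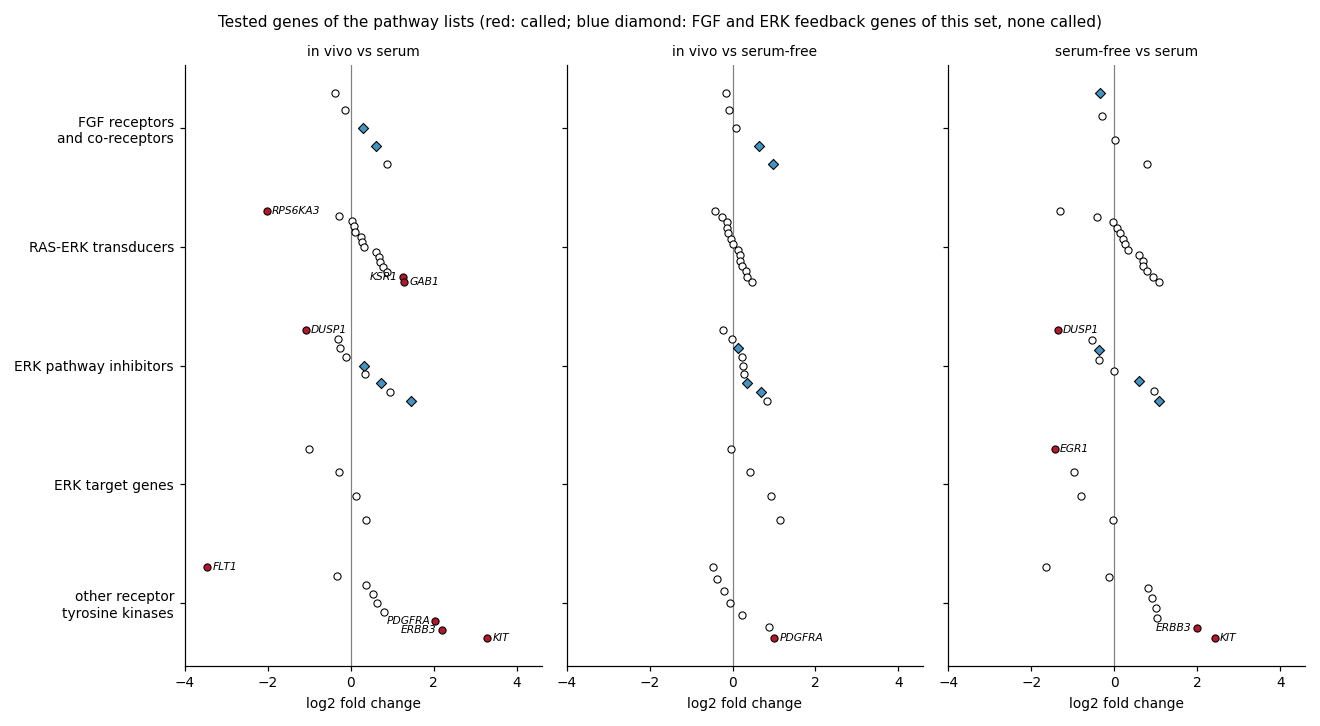
Log2 fold change of each tested gene in 5 lists of the pathway and its neighbours, in 3 comparisons of culture conditions; red points were called and are named, blue diamonds are members of the set described here. No blue diamond was called, while DUSP1, EGR1, GAB1, KSR1, RPS6KA3 and 4 other receptor tyrosine kinases were called in at least 1 comparison.

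Markers of the hypoblast, which ERK activity favours in the mammalian blastocyst, summed to between 5015 and 8209 CPM in vivo, 4449 and 7326 serum-free and 885 and 4256 with serum, so the serum embryos again lay below all others in this sum. Of the 13 markers, PDGFRA included, 7 were tested between in vivo and serum, of which 2 (FN1 and PDGFRA) were called higher in vivo and none lower. The estimates of the others went both ways, and none was called. COL4A1 (1.16) and RSPO3 (0.40) were higher in vivo, and SPARC (-0.68), LAMB1 (-0.57) and GATA6 (-0.16) lower. Against serum-free embryos 8 were tested, of which 1 was higher and 1 lower in vivo. How the feedback genes relate to the number of hypoblast cells was not tested.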

How the data were processed

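Single early bovine blastocysts were sequenced from SMARTer cDNA libraries. After trimming and mapping to the UMD3.1 genome build, the authors deposited raw, unnormalized counts of exon fragments with a unique position, for each gene in each embryo. The counting did not use strand, so overlapping antisense transcripts cannot be told apart, and unique mapping can lower the counts of genes with close copies. All 24 value columns were matched to an embryo by name, and culture and sex were taken from the labels. No 2 columns were identical.

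Genes with at least 15 counts in every embryo of at least 1 group compared were tested with edgeR 4.0.16 in R 4.3.3 (TMM, quasi-likelihood test, Benjamini-Hochberg adjustment over all genes tested), in fits holding the groups compared alone. Standard errors and 95% intervals follow from each fold change and F value. Members below the limit were tested on log2(TMM CPM + 1) with a two-sided exact permutation test (scipy 1.17.1), adjusted over 16 tests, and relations with 100000 permutations within cultures. The test was checked on simulated counts. Alternatives were the exact test of edgeR, DESeq2 1.42.0 and its size factors, other count limits, 1 fit of all embryos, thinned counts, sex as a covariate, a replicate block, a pseudocount of 0.25 and leaving out each embryo.

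The members and gene lists were chosen with earlier results of these data known. All members are named, and from each list and comparison up to 4 called genes in each direction with the largest fold change and a mean of 5 CPM or more. Further genes (FGF2, FGF9, FGF18, FGFR3, SDC4, RASA1, NRAS, PTPN11, ARAF, MET, CSF1R, PTPRC and the ligands at 0) were picked after their values were seen. Sequences and coordinates were not used here.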

Additional observations from a re-analysis of the deposited data

Results flagged for a closer look

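Among 30 groups of 8 embryos examined (10 genes in 3 cultures), 3 held an embryo that stood apart from the other 7 by its gap to the nearest, on the log2(CPM + 1) scale. For normally distributed values chance gives about 1 such group in 20. That rate does not hold for groups with many values at 0, as with FGF4. Serum embryo B2 had 14.7 CPM of FGFR4, the lowest of its group. Serum-free embryo C3 had 7.96 CPM of SPRED1, the lowest of its group. In vivo derived embryo A4 had 0.442 CPM of FGF4 from 2 counts, the single in vivo derived embryo with a count, which is below the floor of 3 counts.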

How the results depend on the processing

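The number of members called was unchanged under 213 of the 225 alternatives tried over all comparisons and tests. Between in vivo and serum it rose from 0 to 1 with the exact test of edgeR, DESeq2 or the replicate block, the 1 being DUSP6 (log2 fold change 1.44, 1.43 and 1.37, adjusted p = 0.0446, 0.0378 and 0.0296). These alternatives used the same count limit, which DUSP6 passed only through the in vivo derived embryos. Leaving out each embryo gave 0 to 1 called between in vivo and serum, between serum-free and serum, between male in vivo and serum, and between male in vivo and serum-free. The male in vivo against serum count fell from 1 to 0 with at least 15 counts in every embryo, since DUSP6, at 14 counts in B7, then left the test, and in 1 fit over all 24 embryos (adjusted p = 0.0536), where the cause was not tested. Signs of single values were followed for every tested member with the sexes pooled, but only for DUSP6 within sex and between the sexes. Those that changed sign were DUSP6 in females, in vivo over serum (-0.692 without A9 and -0.0488 without B6, range -0.692 to 1.06), and SPRED1 in vivo over serum-free (-0.0215 without C3, range -0.0215 to 0.266). The embryo numbers in the labels gave no evidence of a pairing. Deviations of same-numbered embryos correlated between -0.13 and 0.08. In only 1 of 21 pairs (7 in each of the 3 pooled comparisons, which share embryos) was the correlation highest with the own number. The replicate block, which keeps the 7 shared numbers per group, is therefore only an alternative. It changed no other call of a member. Over all genes it moved the calls from 1011 to 699 between in vivo and serum, from 161 to 77 between in vivo and serum-free and from 640 to 27 between serum-free and serum. Over the alternatives other than leaving out 1 embryo, calls among all genes ran from 544 to 1403, 64 to 208 and 27 to 847 in those comparisons. Within sex they ran from 814 to 1286 (reported 1035) in males and 33 to 585 (34) in females between in vivo and serum, and from 23 to 201 (74) and 0 to 232 (25) between in vivo and serum-free. Male against female they ran from 23 to 119 (52) in vivo, 0 to 97 (13) with serum and 0 to 57 (11) serum-free. Leaving out 1 embryo, they ran from 890 to 1155, 115 to 174 and 393 to 784 with the sexes pooled, from 658 to 1755 and 2 to 446 in males and females between in vivo and serum, from 9 to 122 and 1 to 18 between in vivo and serum-free, and from 41 to 69, 7 to 23 and 8 to 17 male against female. The counts of 393, 1755, 658 and 446 were those without C7, B1, B7 and B2. The background shares given beside the members move accordingly. Low counts limit FGF4, FGFR1, ETV4 and ETV5, for which differences of a few counts decide the level.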
